A study of Homo sapiens with 10 samples.

Results

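The genes described here are 40 genes of the short arm of chromosome 20 (20p), out of 19590 genes in the RNA-Seq table of MV4-11 cells. The members were chosen by symbol from the genes of this arm with the normalized counts in the IRF8 KO and control libraries in view, and the difference between these groups is therefore given for them as a description without a test. By the RefSeq annotation all 40 members lie on 20p. A gene entered the fit if its normalized counts averaged 10 or more in the 8 libraries, which 13110 genes and 39 members did. PLCB1 was the member below this filter. The other 74 tested genes of 20p and the 238 tested genes of the long arm (20q) served for comparison.

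MV4-11 is an established human AML cell line, and the study asked which genes depend on the transcription factor IRF8 in it. The control group consists of 4 libraries of cells infected with a control vector, which are named WT in the table. The IRF8 KO group consists of 4 libraries of cells with a lentiviral CRISPR deletion of IRF8, grown as clones from limiting dilution. Both groups passed through lentiviral infection and puromycin selection, according to the study's methods. Neither the labels nor the methods say which clone each IRF8 KO library came from, whether the 4 replicates are separate cultures, or what a shared replicate number stands for. The p-values given below therefore measure only the spread between these libraries, which may be technical, and a clone cannot be told apart from the deletion.

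The short arm of chromosome 20 carries genes of unrelated function. Among them are subunits of the spliceosome, of vesicle coats and of mitochondrial enzymes, ubiquitin ligases, kinases, and receptors of myeloid cells. What such neighbours share is the DNA molecule they lie on, so that they are gained or lost together where the number of an arm changes. The mRNA of many genes follows the number of gene copies, while the mRNA of some genes is held closer to its usual amount by feedback on transcription or RNA stability. Copies of the arm in these cells were not analysed here.

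Between 39560072 and 65519047 reads per library were assigned to genes. IRF8 itself had 36891, 15192, 43016 and 22535 normalized counts in control replicates 1 to 4 and 6377, 2401, 12903 and 7819.7 in IRF8 KO replicates 1 to 4, so the 2 groups did not overlap, but the mRNA remained present in the KO libraries (log2 fold change of IRF8 -2.11 ± 0.51, where ± gives the standard error here and at all log2 fold changes, adjusted p = 0.022 in limma). This adjusted p was 0.053 to 0.059 when control replicate 1, control replicate 3 or IRF8 KO replicate 1 was left out. The study reports that its knockout clones had no IRF8 protein in Western blots. By ChIP-qPCR it also found that IRF8 was lost from target genes in knockout cells. All 8 of the listed myeloid markers averaged 10 normalized counts or more, with a summed level of 95146 to 99119 in the control and 113172 to 136244 in IRF8 KO replicates 2 to 4. The sum was 347165 in IRF8 KO replicate 1, where LYZ alone had 248604 normalized counts. Without LYZ, which was not called, the sums were 80389 to 97386 in the control and 92630.3 to 99405 in the IRF8 KO libraries. FLT3 gave the most counts to these sums (mean 55440 in the control and 47310 in the IRF8 KO libraries). They do not show the change of MPO (767 and 13378) and ITGAM (79.6 and 710). These 2 markers were called higher and 0 lower, where 8.65% and 9.56% of all tested genes were. Of the markers of other cell types, 0 of 3 for T cells, 0 of 3 for erythroid cells, 2 of 3 for B cells and 3 of 5 for epithelial cells or fibroblasts averaged 10 normalized counts or more. EPCAM, which defines epithelial cells, was at 1.9 or less, and KRT8 with KRT18 made up most of a summed level of 1493 to 3739 in the control and 67.1 to 263 in the IRF8 KO libraries. The part of these shifts in the results below was not tested.

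All 39 tested members had a lower mean in the IRF8 KO than in the control libraries on the scale of log2(normalized count + 1), on which all log2 values here are given. Their median log2 fold change was -0.93, where -1 stands for 50% of the control, and the middle of the distribution was narrow, from -1.15 at the lower to -0.73 at the upper quartile. The median over all 13110 tested genes was -0.00094, and 50.1% of them were below 0. With 0.05 as the limit for the adjusted p of limma, 28 members were called lower and 0 higher, where 9.56% of all tested genes were called lower and 8.65% higher. In 29 members every IRF8 KO value was below every control value, as in 13.0% of all tested genes, and in 0 members above it, as in 12.3%. Since this difference was in view when the members were listed, these counts and the narrow middle only describe them.

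The shift was of similar size in every IRF8 KO library. Relative to the control mean, the median of the 39 members was -0.94, -0.97, -0.99 and -0.93 in IRF8 KO replicates 1 to 4, and 39, 39, 38 and 39 of them were lower. A control library set against the mean of the other 3 had a median between -0.098 and 0.081. The genes outside chromosomes 20 and Y had a median between 0.014 and 0.022 in the same IRF8 KO libraries. The other 20p genes had nearly the same median as the members (-0.96), with a wider middle from -1.40 to -0.52, and 66 of these 74 genes were lower. The members were chosen with this difference in view and the lists were not matched for abundance, so the unlike widths are only a description. The 20q genes had a median of -0.92, and 217 of 238 were lower.

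**Figure D1:**
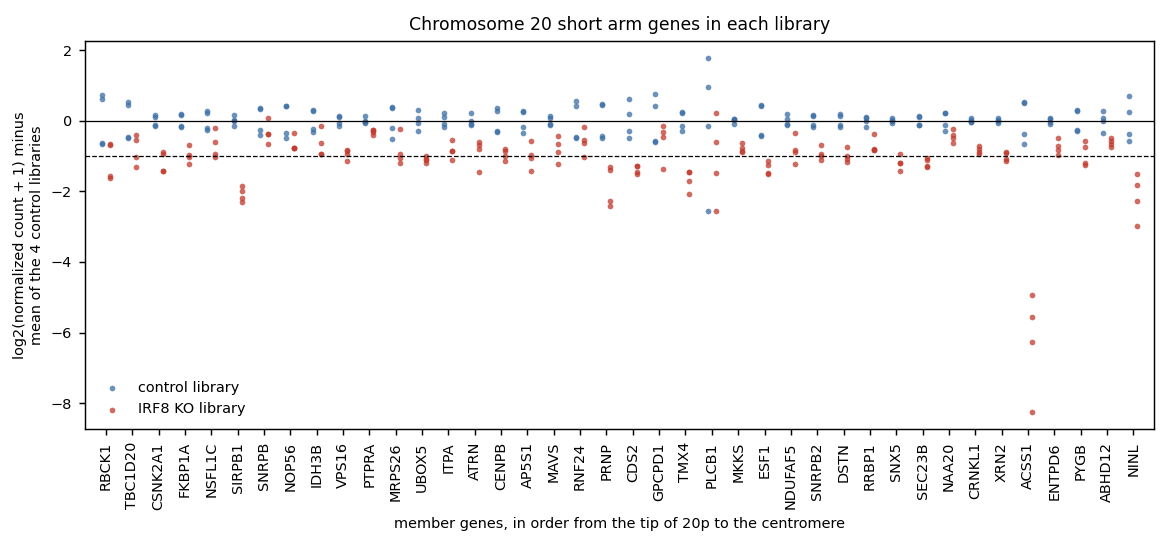
Each member in each library, in order from the tip of 20p to the centromere. The vertical axis is log2(normalized count + 1) minus the mean of the 4 control libraries, blue points are control and red points IRF8 KO libraries, and the dashed line marks -1. Most red points lie near the dashed line along the whole arm, with ACSS1 far below it. SIRPB1, PRNP, TMX4 and NINL also lie below the line, and PTPRA, SNRPB and NAA20 lie closer to 0. The points of PLCB1, which had few reads, are scattered.

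Position along the arm and abundance told little about the size of the difference. The 19 tested members nearest to the tip had a median log2 fold change of -0.87 and the 20 nearest to the centromere -0.98. Spearman's rho over the 39 genes was -0.12 between log2 fold change and order along the arm, and 0.18 between log2 fold change and mean normalized count. Both are descriptions of genes that share the same 8 libraries.

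The spread of the members around -1 was then examined. With -0.5 and -1.5 as limits, 31 of the 39 members lay between them, 3 lay closer to 0 and 5 further down. Next to the upper limit were NAA20 at -0.44 on the inside of the group near 0 and GPCPD1 at -0.58 just outside it. Next to the lower limit were TMX4 at -1.68 and CDS2 at -1.38. Of all tested genes, 17.1% were below -0.5 and 5.22% below -1.5. A log2 fold change above -0.5 was found in 18 of the 74 other 20p genes and 43 of the 238 20q genes. A value below -1.5 was found in 17 and 38 of them. In terms of the means, 29 members had between 40% and 65% of their control level, and 9 between 45% and 55%.

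The spread between members was set against the spread between replicates of the same member. When each IRF8 KO library was divided by the control library of the same number, which gives 4 ratios without a shared library, the SD of the mean log2 ratio across the 39 members was 0.94. The SD within a member over its 4 ratios had a median of 0.19 and a root mean square of 0.37. ACSS1 sets most of the first value. Without it, and with members of at least 100 normalized counts, the SD between the 37 members was 0.37, and the SD within a member had a median of 0.17 and a root mean square of 0.25. The SD between members is taken over means of 4 ratios and the SD within a member over single ratios. A mean of 4 ratios varies less than a single ratio, so the SD within a member overstates the replicate error of these means. Control and IRF8 KO libraries were also paired across unlike numbers (1 with 2, and so on). The SD within a member over all 39 then had a median of 0.42 and a root mean square of 0.63. Every such pair joined replicate 1 or 3 with replicate 2 or 4, which differed in many members, as described below. Unlike numbers within these sets were not paired, so the larger spread does not show that the replicate number itself matters. Spearman's rho between any 2 of the 4 sets of ratios ranged from 0.50 to 0.78 over the 39 members. The log2 fold change lay within 1 standard error of -1 in 14 members and within 2 standard errors in 29. These standard errors come from the fit by group only and include the difference between replicates 1 and 3 and replicates 2 and 4. Members with a large difference between these sets fall within such limits more easily.

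**Figure D2:**
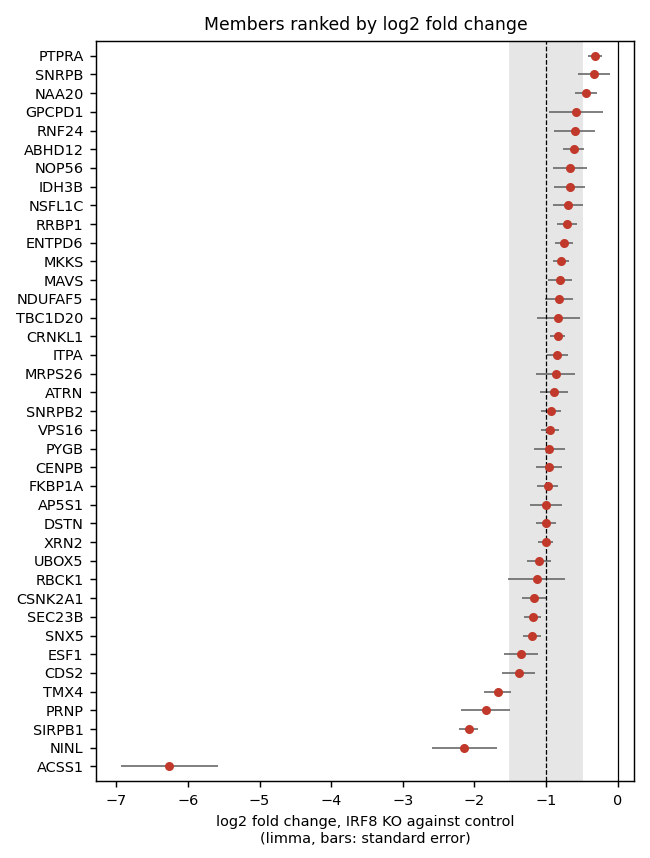
The 39 tested members ranked by their log2 fold change between IRF8 KO and control libraries, with the limma standard error as bars. The grey band spans -1.5 to -0.5 and the dashed line marks -1. PTPRA, SNRPB and NAA20 stand above the band, and TMX4, PRNP, SIRPB1, NINL and ACSS1 below it.

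The members closest to 0 were PTPRA, SNRPB and NAA20. PTPRA encodes a receptor-type tyrosine phosphatase that acts on SRC family kinases. It had 4547, 4699, 4593 and 5183 normalized counts in control replicates 1 to 4 and 3927, 3548, 3962 and 3787 in IRF8 KO replicates 1 to 4, or 80% of the control mean. The groups did not overlap, and the replicates of each group lay close together (log2 fold change -0.32 ± 0.10). The RefSeq span of PTPRA overlaps that of VPS16, another member, which was at 52% of its control mean. How reads in the overlap were assigned was not tested.

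SNRPB encodes the SmB and SmB′ proteins of the ring that surrounds spliceosomal snRNAs. Its normalized counts were 14398, 8658, 14819.6 and 9624 in control replicates 1 to 4 and 8916, 7291, 12144 and 8958 in IRF8 KO replicates 1 to 4. The groups overlapped, since control replicates 2 and 4 were within the range of the IRF8 KO libraries and IRF8 KO replicate 3 was the highest of its group. The log2 fold change was -0.33 ± 0.22. NAA20, the catalytic subunit of the NatB N-terminal acetyltransferase, had 3672, 2595, 3662 and 2906 normalized counts in the control and 2403, 2044, 2714 and 2249.8 in the IRF8 KO libraries. Here only IRF8 KO replicate 3 reached into the range of the control group (73.3% of the control mean).

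At the other end, ACSS1 was almost absent in the IRF8 KO libraries. It encodes the mitochondrial enzyme that turns acetate into acetyl-CoA. The normalized counts were 234, 432, 192 and 429 in control replicates 1 to 4 and 0, 2.9, 5.4 and 8.9 in IRF8 KO replicates 1 to 4, with no read at all in IRF8 KO replicate 1. The mean level was 1.33% of the control. The log2 fold change of ACSS1 was -6.26 ± 0.68, a value that depends on the pseudocount at such counts and was -5.15 with a pseudocount of 5. NINL, which encodes a centrosomal protein that anchors microtubules, had few reads in all libraries. It had 28.2, 15.5, 38.7 and 17.9 normalized counts in the control and 2.1, 7.6, 4.1 and 5.9 in the IRF8 KO libraries, without overlap. The log2 fold change of NINL was -2.14 ± 0.45, and -1.56 with a pseudocount of 5.

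SIRPB1 and PRNP, both encoding proteins of the cell surface, had more reads. SIRPB1 is an activating receptor of myeloid cells that signals through the adaptor TYROBP. It had 3254, 2638, 2942 and 2904 normalized counts in control replicates 1 to 4 and 808, 640.4, 596 and 734 in IRF8 KO replicates 1 to 4. The groups were far apart, with 23.7% of the control level left (log2 fold change -2.08 ± 0.13). SIRPA and SIRPG, its neighbours on 20p, have related sequences and were at -1.71 and -2.64, and reads shared between them cannot be told apart here.

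PRNP encodes the prion protein. Its normalized counts were 4477, 8274, 4299.8 and 8409 in control replicates 1 to 4 and 1140.2, 2279.6, 1253 and 2456 in IRF8 KO replicates 1 to 4. In both groups replicates 2 and 4 had nearly double the level of replicates 1 and 3, and within each of these sets the IRF8 KO libraries were lower by almost the same amount (-1.88 in replicates 1 and 3 and -1.82 in replicates 2 and 4). TMX4, a thioredoxin-related protein of the endoplasmic reticulum membrane, had 3889, 5551, 4287 and 5700.1 normalized counts in the control and 1461, 1736, 1132 and 1756 in the IRF8 KO libraries. Its level was 31.3% of the control and the groups did not overlap.

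**Figure D3:**
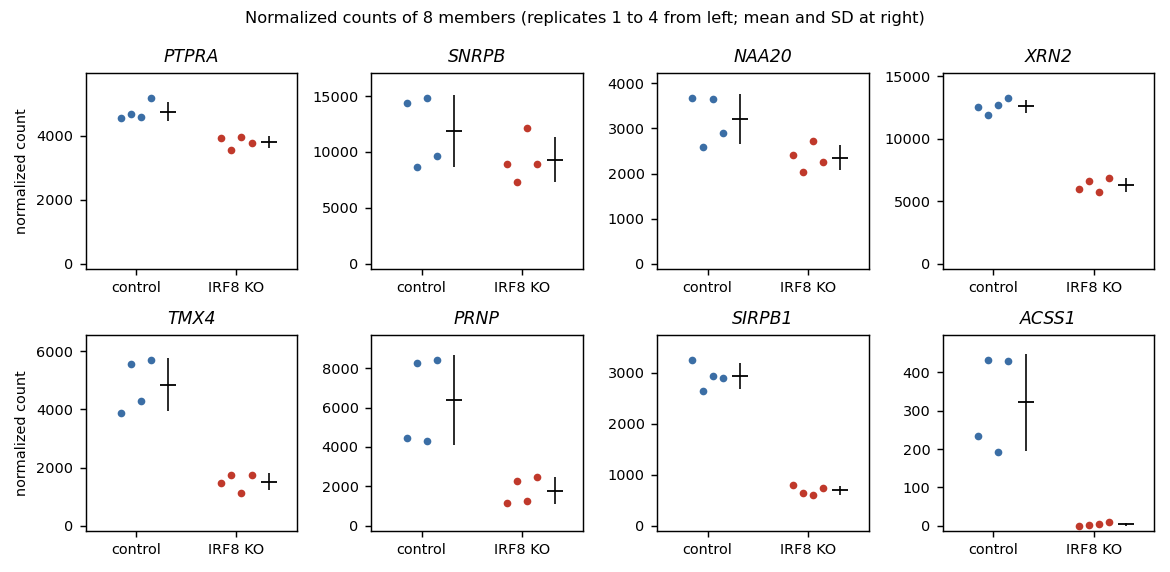
Normalized counts of 8 members in each library, with the mean and SD of the 4 replicates beside the points and a vertical axis from 0. The upper row shows PTPRA, SNRPB and NAA20, which stayed closest to the control, and XRN2, which lay close to the middle of the members. The lower row shows TMX4, PRNP, SIRPB1 and ACSS1, with no overlap between the groups.

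The sequences before the start sites of these members are shown because the members differ in how far they moved although they lie on the same arm. RefSeq (GRCh38.p14) promoter sequences were found for 35 of the 40 members, and the 250 bases before the annotated start were searched on both strands for 5 motifs. One holds GAAA a second time after any 2 bases, as in the interferon-stimulated response element that IRF proteins can bind. Another starts with GGAA in place of the first GAAA, as in composite sites of an ETS factor with an IRF. The others were CCAAT (a site of the factor NF-Y), GGGCGG (the GC box) and TATAAA (the TATA box). Capitals mark every match on either strand, so that CCAAT can also appear as its reverse complement. Printed 5′ to 3′ on the strand of the gene are first the 3 members closest to 0, then the 3 lowest members with a RefSeq promoter and on average 100 or more normalized counts, and last both members with a match to the interferon-stimulated response element.
PTPRA, chr20:2873231-2873480, + strand: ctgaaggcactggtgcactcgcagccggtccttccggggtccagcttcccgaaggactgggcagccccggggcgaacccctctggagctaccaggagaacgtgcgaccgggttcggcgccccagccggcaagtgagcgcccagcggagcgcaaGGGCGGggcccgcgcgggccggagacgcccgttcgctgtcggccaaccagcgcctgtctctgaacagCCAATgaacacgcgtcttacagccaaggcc
SNRPB, chr20:2470790-2471039, - strand: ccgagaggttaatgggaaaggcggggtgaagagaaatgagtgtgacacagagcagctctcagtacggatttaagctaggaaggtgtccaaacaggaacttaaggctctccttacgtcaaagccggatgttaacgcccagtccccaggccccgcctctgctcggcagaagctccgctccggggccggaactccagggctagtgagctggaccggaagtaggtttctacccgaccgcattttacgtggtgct
NAA20, chr20:20017040-20017289, + strand: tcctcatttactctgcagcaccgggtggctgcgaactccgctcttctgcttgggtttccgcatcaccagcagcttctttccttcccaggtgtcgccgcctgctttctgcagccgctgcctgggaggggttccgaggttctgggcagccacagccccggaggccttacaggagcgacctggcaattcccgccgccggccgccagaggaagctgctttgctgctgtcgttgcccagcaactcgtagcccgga
ACSS1, chr20:25058140-25058389, - strand: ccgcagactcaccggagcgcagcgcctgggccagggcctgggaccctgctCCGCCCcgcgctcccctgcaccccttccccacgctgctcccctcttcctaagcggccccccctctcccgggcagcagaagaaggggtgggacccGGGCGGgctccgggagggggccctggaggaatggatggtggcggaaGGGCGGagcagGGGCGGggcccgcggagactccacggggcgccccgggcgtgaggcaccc
TMX4, chr20:8019762-8020011, - strand: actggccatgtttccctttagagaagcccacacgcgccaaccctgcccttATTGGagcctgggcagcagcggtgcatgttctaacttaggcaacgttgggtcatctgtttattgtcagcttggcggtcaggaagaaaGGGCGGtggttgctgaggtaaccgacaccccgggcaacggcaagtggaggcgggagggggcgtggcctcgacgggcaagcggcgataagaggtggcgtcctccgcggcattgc
CDS2, chr20:5126758-5127007, + strand: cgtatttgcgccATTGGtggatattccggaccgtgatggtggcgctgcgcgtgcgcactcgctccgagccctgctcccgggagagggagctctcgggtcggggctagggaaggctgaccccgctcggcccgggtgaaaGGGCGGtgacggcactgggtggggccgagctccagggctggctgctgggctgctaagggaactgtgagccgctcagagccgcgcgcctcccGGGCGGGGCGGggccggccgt
MKKS, chr20:10434223-10434472, - strand: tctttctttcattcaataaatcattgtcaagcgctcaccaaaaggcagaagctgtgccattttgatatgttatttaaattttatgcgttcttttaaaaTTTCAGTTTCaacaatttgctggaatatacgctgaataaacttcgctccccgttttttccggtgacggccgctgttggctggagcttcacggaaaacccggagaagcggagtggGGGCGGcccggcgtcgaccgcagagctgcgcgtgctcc
SNRPB2, chr20:16729776-16730025, + strand: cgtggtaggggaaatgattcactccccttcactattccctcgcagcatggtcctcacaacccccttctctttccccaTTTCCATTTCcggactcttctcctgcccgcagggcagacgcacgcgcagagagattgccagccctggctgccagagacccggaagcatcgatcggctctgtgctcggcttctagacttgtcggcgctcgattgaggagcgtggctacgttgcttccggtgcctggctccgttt

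This element was found before MKKS and SNRPB2, or 5.71% of the 35 members, and before 3.07% of all 27305 RefSeq promoters of this length and 2.59% of those of tested genes. The composite element and TATAAA were found before 0 of the 35 members, before 2.44% and 11.1% of all promoters, and before 2.28% and 5.77% of those of tested genes. GGGCGG stood before 25 members (71.4%, against 42.3% of all promoters and 65.4% of those of tested genes), among them ACSS1 with 4 matches. The windows of SNRPB and NAA20 held no match to any of the 5 motifs, but that of PTPRA held CCAAT and GGGCGG. Without a match were also FKBP1A, IDH3B, NDUFAF5, SNX5, CRNKL1 and XRN2, with log2 fold changes from -1.20 to -0.67. CCAAT was found before 9 members (25.7%, against 33.0% of all promoters and 35.3% of those of tested genes). Matches of GGGCGG overlap each other before CDS2. The GC content of the members' windows ranged from 44.4% to 81.6% with a median of 70.4%, against a median of 64.4% for tested genes. These are matches of letters and no binding sites, and the annotated start need not be the one used in MV4-11 cells.

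Of the 6 members that act on RNA, SNRPB was described above. XRN2, a nuclear exoribonuclease that helps to end transcription, varied little within each group, with 12539.9, 11947, 12674 and 13264 normalized counts in the control and 5977, 6639, 5727 and 6868 in the IRF8 KO libraries. The groups were well separated, with means of 12606 ± 540.1 and 6303 ± 539 normalized counts (SD, n = 4 each). CRNKL1, a protein of the spliceosome, had 2929, 2913, 3082 and 3148 normalized counts in the control and 1575, 1635, 1819 and 1726 in the IRF8 KO libraries, which is 56% of the control. SNRPB2, a protein of the U2 snRNP, was at 52.4% without overlap of the groups.

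NOP56 and ESF1 both act in the nucleolus, NOP56 as a scaffold of box C/D snoRNPs and ESF1 in the processing of ribosomal RNA. NOP56 had 21355, 11469, 21622 and 12695 normalized counts in control replicates 1 to 4 and 9494, 9359, 12614 and 9423 in IRF8 KO replicates 1 to 4. Control replicates 1 and 3 were nearly double the other control libraries, and the groups overlapped (-0.97 within replicates 1 and 3, -0.36 within replicates 2 and 4). ESF1 had 5372, 2997, 5438 and 3029 normalized counts in the control and 1816, 1446, 1682 and 1416 in the IRF8 KO libraries. It was lower in every IRF8 KO library than in any control library, with -1.63 in replicates 1 and 3 and -1.07 in replicates 2 and 4. The median log2 fold change of these 6 genes of RNA processing was -0.89.

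The 6 members of membrane traffic had a median log2 fold change of -0.97 and an SD of 0.19 between them. SEC23B, a subunit of the COPII coat of vesicles leaving the endoplasmic reticulum, had 5331, 6415, 5416 and 6330.0 normalized counts in the control and 2788, 2720.3, 2419 and 2366 in the IRF8 KO libraries. SNX5, a sorting nexin that carries receptors from endosomes, had 9665, 9297, 9825 and 10366 normalized counts in the control and 3627, 4219.9, 4296 and 5048 in the IRF8 KO libraries. They were at 43.8% and 43.9% of the control, with the groups far apart. VPS16, a subunit of the HOPS complex of lysosome fusion, and AP5S1, a subunit of the AP-5 adaptor, were at 52% and 50.1%. RRBP1, a ribosome-binding protein of the endoplasmic reticulum, was at 61.5%. The groups also did not overlap for these 3 genes.

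TBC1D20, an activator of the GTPase activity of RAB1, was the 1 gene of this group whose libraries overlapped. It had 1541, 3072, 1546 and 2914 normalized counts in the control and 1049.7, 1618, 863 and 1462 in the IRF8 KO libraries. Replicates 2 and 4 were higher than replicates 1 and 3 in both groups, so that the groups overlapped although the IRF8 KO library was lower in each of the 4 pairs with the same number.

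Among the 10 members of mitochondria and metabolism, the 9 other than ACSS1 had log2 fold changes between -1.38 and -0.58. CDS2, which makes CDP-diacylglycerol for phospholipid synthesis, was the lowest of these. It had 1599, 3007, 1396 and 2218 normalized counts in the control and 802, 806, 720.4 and 689.6 in the IRF8 KO libraries, where its level hardly varied. IDH3B, the beta subunit of the NAD-dependent isocitrate dehydrogenase, had 5716, 3768, 5608 and 3954 normalized counts in the control and 3001, 2417, 4187 and 2439 in the IRF8 KO libraries. Only IRF8 KO replicate 3 reached the lowest control libraries. MRPS26 of the mitochondrial ribosome had 2325, 1258, 2359 and 1570.5 normalized counts in the control and 934, 866, 1550.5 and 782 in the IRF8 KO libraries, and again only IRF8 KO replicate 3 was inside the control range.

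PYGB, a glycogen phosphorylase, had 4536, 6546, 4445 and 6700.0 normalized counts in the control and 2266, 3639, 2364 and 3223 in the IRF8 KO libraries. Replicates 2 and 4 were again higher in both groups, and within each set the difference was nearly equal (-0.96 and -0.95). PYGB and ABHD12, a lipase of lysophosphatidylserine, overlap in RefSeq, and ABHD12 was at 64.6% of the control. ITPA, which removes inosine triphosphate, NDUFAF5, an assembly factor of respiratory complex I, and ENTPD6, a nucleoside diphosphatase, were at 56%, 57.7% and 59.8% without overlap of the groups. GPCPD1, which cleaves glycerophosphocholine, had 2196, 4485, 2244 and 5617 normalized counts in the control and 2413, 2672, 1281 and 3018 in the IRF8 KO libraries. Its groups overlapped widely, and the IRF8 KO library of replicate 1 was above the control library of the same number.

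In signalling, CSNK2A1, the catalytic alpha subunit of casein kinase 2, had 16884, 19892, 16645 and 20664 normalized counts in the control and 6908, 9999.8, 6825 and 9562 in the IRF8 KO libraries. This is 44.9% of the control, without overlap. CSNK2A3 on another chromosome is a nearly identical copy of this gene, and how reads were split between them was not tested. RBCK1, the HOIL-1 subunit of the complex that builds linear ubiquitin chains, had 3518, 9031, 3448 and 8408 normalized counts in the control and 1784, 3472, 1870.1 and 3446 in the IRF8 KO libraries. Replicates 2 and 4 had more than double the level of replicates 1 and 3 in the control. The groups overlapped only in that IRF8 KO replicate 2 was just above control replicate 3, and the IRF8 KO library was lower in every pair of equal number. MAVS, the mitochondrial adaptor of cytosolic RNA sensors, had 6539, 6767, 5800.1 and 5657 normalized counts in the control and 3866, 4521, 2646 and 3342 in the IRF8 KO libraries, without overlap.

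UBOX5, a U-box ubiquitin ligase, was at 46% of the control without overlap. RNF24, a membrane protein with a RING domain, had 2645, 5464, 2699 and 4972 normalized counts in the control and 3311, 2555, 1815 and 2405 in the IRF8 KO libraries. Here the replicate sets disagreed, with a log2 difference of -0.12 within replicates 1 and 3 and -1.07 within replicates 2 and 4. PLCB1, a phospholipase C, had 0, 19.0, 4.3 and 10.4 normalized counts in the control and 1.1, 2.9, 0 and 5.9 in the IRF8 KO libraries and was too low for a comparison.

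The remaining members stayed within the band around -1. FKBP1A, the prolyl isomerase that binds tacrolimus and rapamycin, had 14161, 11126, 13881 and 11253 normalized counts in the control and 7707, 6169.8, 6354 and 5380.0 in the IRF8 KO libraries. The groups did not overlap, at 50.8% of the control. DSTN, an actin-severing protein of the cofilin family, had 3949.9, 3309.6, 4164 and 3178 normalized counts in the control and 2141, 1697, 1821 and 1621 in the IRF8 KO libraries, at 49.9%. CENPB, which binds alpha satellite DNA at centromeres, was at 50.4%, and ATRN, a transmembrane glycoprotein, at 55.2%, both without overlap. MKKS, a chaperonin-like protein of the BBS chaperonin, had 1648, 1681, 1702 and 1538 normalized counts in the control and 1060.3, 898, 953 and 883 in the IRF8 KO libraries, at 57.8%, with narrow groups that did not overlap. NSFL1C, a cofactor of the p97 ATPase, was at 62.6%, and IRF8 KO replicate 3 reached the control range. Besides those pairs already named, the RefSeq spans of ITPA, UBOX5, RNF24, SNX5 and CRNKL1 overlap genes that are not members. How reads from such overlaps were assigned was not tested.

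Replicates 1 and 3 differed from replicates 2 and 4 in many members, in both groups. In the control, replicates 2 and 4 were both above replicates 1 and 3 in 14 of the 39 members and both below them in 20. In the IRF8 KO libraries this was so in 9 and 16 members, and in both groups in the same direction in 7 and 13. Of all 13110 tested genes, 5509 were above and 5142 below in the control. The numbers were 3159 and 3323 in the IRF8 KO libraries, and 2477 and 2527 in both groups in the same direction. A difference of over 0.5 on the log2 scale between the sets was found in 41.0% of the members in the control and in 28.2% in the IRF8 KO libraries, close to the 42.7% and 27.2% of all tested genes. The median log2 difference between IRF8 KO and control over the 39 members was -0.96 within replicates 1 and 3 and -0.92 within replicates 2 and 4, and all 39 members were lower within each set. In 6 members, which were RNF24, CDS2, NOP56, ESF1, CENPB and NINL, the within-set differences were more than 0.5 apart. The sets were seen in the data and carry no label, so their difference was not tested.

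**Figure D4:**
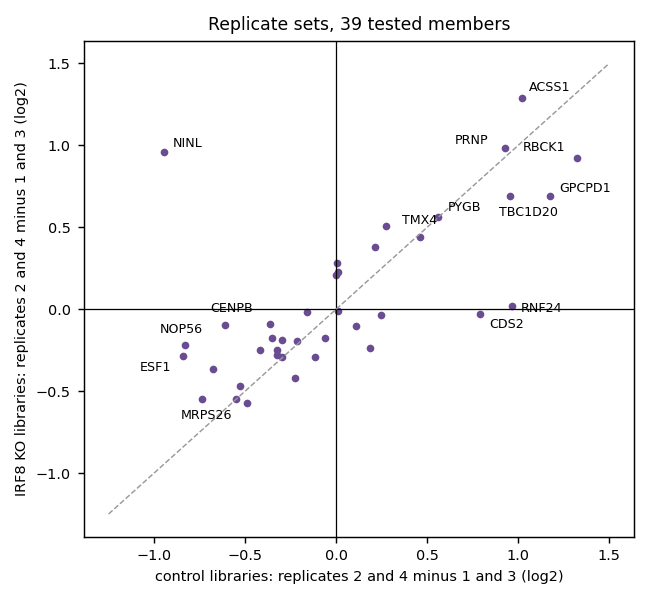
Difference between replicates 2 and 4 and replicates 1 and 3 on the log2 scale, in the control libraries (horizontal axis) and in the IRF8 KO libraries (vertical axis), for the 39 tested members. On the dashed line the difference is equal in both groups. PRNP, PYGB and TMX4 lie near it, while RNF24 and CDS2 differ between the sets only in the control and NINL has opposite signs.

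With the replicate number as a block in limma, 35 members were called lower and 0 higher, against 14.6% and 14.2% of all tested genes. The 7 members gained were RBCK1, TBC1D20, NSFL1C, NOP56, IDH3B, MRPS26 and NAA20, and 0 were lost. The 4 members that were called in neither fit were SNRPB, PTPRA, RNF24 and GPCPD1. Under other settings described below, PTPRA was called lower with DESeq2 and with scaling without chromosomes 20 and Y. It was also called lower with a covariate for replicates 1 and 3 against 2 and 4.

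Many members work with proteins encoded on other chromosomes, and the mRNA levels of such partners are given beside the members. The partners were listed with earlier results of these data known. Subunits of the same complex or pathway were listed for 19 members and paralogs for 22, and 102 of these genes outside chromosome 20 were tested. Their median log2 fold change was 0.13, and limma called 1 lower and 4 higher, which is 4.90% of them against 18.2% of all tested genes. With the replicate number as a block, 1 was lower and 13 higher, where 14.6% and 14.2% of all tested genes were called lower and higher. Of the 31 members with a tested partner outside chromosome 20, counting PLCB1 despite its low counts, 30 had a log2 fold change below that of every such partner, and the exception was PTPRA. Since the members were chosen with their own differences in view, this count only describes them. The 9 partners called higher with the block but not without it were SNRPF, IFIH1, VPS33A, MRPS21, MRPS25, NDUFAF2, SNX2, RAB3GAP1 and PYGL.

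The core of the spliceosomal snRNPs gives an example. Against -0.33 for SNRPB, the 6 other Sm genes SNRPD1, SNRPD2, SNRPD3, SNRPE, SNRPF and SNRPG were between 0.02 and 0.43. SNRPN, a close paralog of SNRPB on chromosome 15, was at -0.08 (limma adjusted p = 0.86). SNRPA1, which pairs with SNRPB2 in the U2 snRNP, was at 0.19, against -0.93 for SNRPB2. The partners of NOP56 in box C/D snoRNPs, which are NOP58, FBL and SNU13, lay between 0.04 and 0.30. The 5 listed partners of CRNKL1 in the Prp19 complex were between -0.29 and 0.21.

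In membrane traffic, the 8 other COPII genes were between -0.15 and 0.39, against -1.19 for SEC23B, and its paralog SEC23A was at 0.37. Of the 5 other HOPS and CORVET genes, VPS41 was called higher. Its mean was 3739.7 ± 309 normalized counts in the control libraries and 5081 ± 507 in the IRF8 KO libraries, each with the SD of 4 replicates (log2 fold change 0.44 ± 0.12, adjusted p = 0.032 in limma). The other 4 lay between 0.13 and 0.45. The 3 partners of AP5S1 were between 0.07 and 0.38, and the 3 of SNX5 between -0.09 and 0.42. The call of VPS41 was lost when any of 6 of the 8 libraries was left out.

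In mitochondria, the 26 tested proteins of the small ribosomal subunit other than MRPS26 had a median of 0.17 and ranged from -0.25 to 0.60, against -0.87 for MRPS26. IDH3A and IDH3G, the other subunits of the isocitrate dehydrogenase, were at -0.19 and 0.17, against -0.67 for IDH3B. Among 6 other assembly factors of complex I, NDUFAF1 was called higher (log2 fold change 0.70 ± 0.20, adjusted p in limma = 0.045), a call that was lost without any 1 of 7 libraries. CSNK2B, the regulatory subunit of casein kinase 2, and the second catalytic subunit CSNK2A2 were at -0.10 and -0.14, against -1.17 for CSNK2A1. Of the partners of RBCK1, SHARPIN was at -0.32 and RNF31 at -0.93, the latter at a control mean of only 17.7 ± 4.0 normalized counts, with the SD of 4 replicates.

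TYROBP, the adaptor that passes on the signal of SIRPB1, moved in the opposite direction to the receptor. It had 1831, 2035, 1888 and 1934 normalized counts in control replicates 1 to 4 and 4985, 4046, 4394 and 3778 in IRF8 KO replicates 1 to 4. All 4 IRF8 KO libraries were above all control libraries (log2 fold change 1.16 ± 0.12, adjusted p = 0.00036 in limma), and the call held with each library left out. Other receptors use TYROBP as well, and of the 8 myeloid markers 2 (MPO and ITGAM) were called higher and 0 lower, where 8.65% and 9.56% of all tested genes were. Of the 6 that were not called, LYZ, SPI1 and CEBPA had a higher and CD33, CSF1R and FLT3 a lower mean on the log2 scale in the IRF8 KO libraries. Their part in the level of TYROBP was not tested. Among the paralogs, TMX1 was called higher (0.55 ± 0.14, adjusted p in limma = 0.031) while TMX4 was lower, and PTPRE was called lower (-0.53 ± 0.14, adjusted p in limma = 0.035) against -0.32 for PTPRA, a difference that was not tested. The call of TMX1 was lost when any of 5 libraries was left out, and that of PTPRE with any of 6. CFL1, the more general relative of DSTN, XRN1, the cytoplasmic relative of XRN2, and PYGL, the liver form of PYGB, were at -0.08, 0.14 and 0.34 and were not called without the block. CDS1, FKBP1B, ATRNL1 and ACSS3 were too low to be tested.

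**Figure D5:**
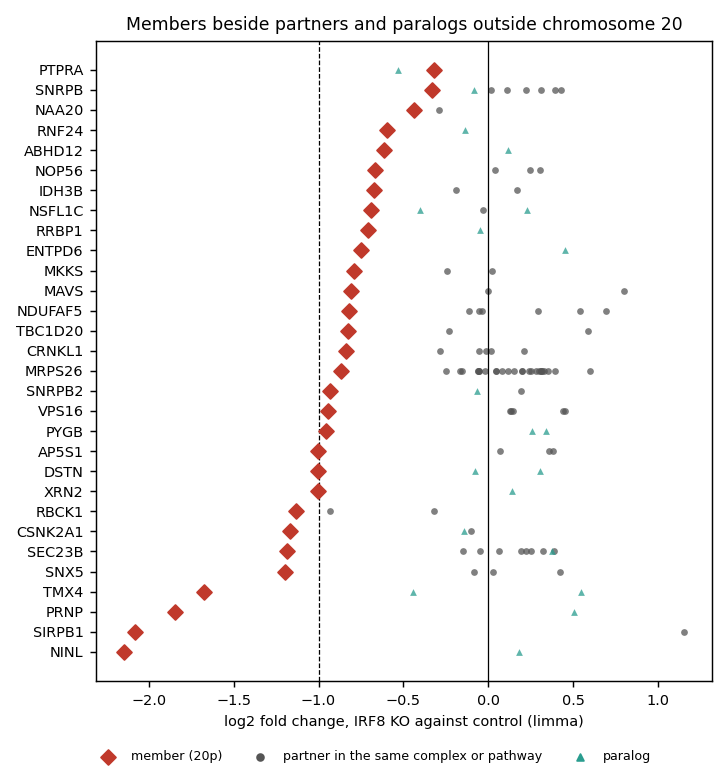
Log2 fold change between IRF8 KO and control libraries for the 30 tested members with listed partners (red diamonds), for partners in the same complex or pathway (grey circles) and for paralogs (green triangles) outside chromosome 20. Partners range from -0.93 (RNF31) to 1.16 (TYROBP) with a median of 0.13, and lie to the right of the member in every line except that of PTPRA, whose paralog PTPRE is further left.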

How the data were processed

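RNA-Seq libraries of 4 control and 4 IRF8 KO replicates were analysed. The authors used RNA-Star for alignment to the GENCODE v32 transcripts and featureCounts for counting. They deposited a signal per gene, which is the count of reads divided by the DESeq2 size factor of its library. For RNA-Seq the sources used here give no genome build. Dividing each library by the value of 1 read gave whole reads for 100% of values within 0.01 reads, and 0 columns were left without a library. The authors' deposited table of their own comparison (fold changes, Wald scores and p-values) and the ChIP-Seq samples were not used here.

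Genes that averaged 10 or more normalized counts were compared on log2(normalized count + 1) with limma 3.58.1 (R 4.3.3). The prior variance followed the mean and was robust to outliers, and p-values were adjusted over 13110 genes after Benjamini and Hochberg. The fit was tested on simulated counts, drawn independently for each library with the same dispersion for all genes. These counts held no difference between replicates 1 and 3 and replicates 2 and 4, so that test does not cover this feature of the data. Alternatives were 2 count models on those whole reads (DESeq2 1.42.0 and edgeR 4.0.16), other pseudocounts, filters and scalings, the replicate block, and leaving out each library. A covariate for replicates 1 and 3 against 2 and 4 and the spread without ACSS1 were chosen after seeing the data. Each library was also set against its group mean. These deviations correlated between control and IRF8 KO libraries of equal number (0.37, 0.48, 0.45 and 0.50 in replicates 1 to 4). All were above 0.1, and the numbers were taken to pair the libraries. The highest correlation of each control library with an IRF8 KO library of another number was 0.47, 0.40, 0.41 and 0.41. Since replicates 1 and 3 differed from 2 and 4 in both groups, the limit of 0.1 cannot show that libraries pair by number. Genes were placed by symbol with RefSeq (GRCh38.p14), which matched 19179 genes, and the arms of chromosome 20 were divided at the widest interval between gene starts. The RefSeq spans of 9 members overlap another gene of the table. The study prepared its RNA-Seq libraries with a stranded kit, but the sources used here do not say if strand was used in counting. At the depth of 39560072 to 65519047 reads, 1 read stood for 0.80 to 1.35 normalized counts. Counting error therefore weighs most on members with few counts, which are NINL, PLCB1 and, in the IRF8 KO libraries, ACSS1. Counts are not divided by gene length, so levels were not compared between genes.

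The members, the lists of partners and the limits of -0.5 and -1.5 were chosen with earlier results of these data known. All members are named, partners where they were called or stand beside their member, and of the other 20p genes the 3 lowest and 3 highest among those that averaged 100 or more normalized counts. Myeloid markers, EPCAM, KRT8 and KRT18 are named as markers, and the uncalled partners and untested paralogs in the examples were chosen after their values were seen.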

Additional observations from a re-analysis of the deposited data

Results flagged for a closer look

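Among the normalized counts of the 40 members and IRF8, 82 groups of 4 libraries were examined for a library that stands apart from the other 3 of its group by Dixon's ratio, and 2 such groups were found. Chance gives about 1 in 20 groups if the 4 values are independent and normal, so 2 of 82 is no more than chance gives. Many groups here split into replicates 1 and 3 against 2 and 4, so this rate is only a rough guide. NOP56 had 12614 normalized counts in IRF8 KO replicate 3, where the next library had 9494. RRBP1 had 6534 normalized counts in IRF8 KO replicate 1, where the next library had 4919.8. No cause was tested for either.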

How the results depend on the processing

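The direction of the tested members was the same under each of the 20 alternatives. The number of members called ranged from 25 to 36 and the number below -1.5 from 4 to 6. With each library left out in turn, the median of the members ranged from -0.97 to -0.89, the number above -0.5 from 3 to 5 (5 without control replicate 4), and the number of called partners from 2 to 8. Called partners numbered 12 with DESeq2, 14 with the replicate block and 18 with the covariate for replicates 1 and 3 against 2 and 4, against 5. Of the 13110 genes, 18.2% were called, 28.7% with the replicate block and 33.1% with the covariate. The block lost no call among members and partners. The SD between members was 0.37 for members of at least 100 normalized counts without ACSS1, by its construction. The remaining changes had no tested cause. Pseudocounts of 0.5 and 5, no filter, a mean of at least 100, upper quartile and quantile scaling, scaling without chromosomes 20 and Y, edgeR and limma without the trend left each of these counts within 1.5 times its value. ABHD12 was not called when control replicate 1, 3 or 4 or IRF8 KO replicate 4 was left out, NDUFAF5 without control replicate 1 or 3 or IRF8 KO replicate 1 or 4, and AP5S1 without control replicate 1. NDUFAF1 also missed the threshold without a filter and without the trend. Depth limits ACSS1, NINL and PLCB1.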

Other observations

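Other genes of 20p spread further than the members, which were chosen with these differences in view. FERMT1, which encodes an integrin-binding kindlin, had 884, 446, 891 and 456 normalized counts in control replicates 1 to 4 and at most 1.0 in any IRF8 KO library, and SMOX, the spermine oxidase, was at 14.1% of its control mean. SIRPG, the receptor next to SIRPB1, was at 16.5%. On the other side, JAG1, a Notch ligand, had 70.0, 249, 70.9 and 257 normalized counts in the control and 2288, 1219.6, 598 and 1717 in the IRF8 KO libraries, with every IRF8 KO value above every control value. CST7, a cystatin of leukocytes, had 650.0, 2893, 626 and 2510.1 normalized counts in the control and 7456, 7192, 2951 and 4094 in the IRF8 KO libraries, where the groups did not overlap either. GGTLC1 followed at a log2 fold change of 0.55. Both JAG1 and CST7 passed the limma threshold as higher, together with SPTLC3 among the 74 other 20p genes (log2 fold change 2.55, a gene outside the naming rule that was chosen after its values were seen), where 8.65% of all tested genes were called higher.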
